A study of Mus musculus with 24 samples.

Results

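The genes described here are 30 Schwann cell and myelin genes, taken by name from the 23420 entries of a count table of mouse cochlea messenger RNA. All 30 had an entry, and 28 passed the filter on low counts and were tested. The other 2, Pmp2 and Opalin, are accounted for with the levels. CBA/Sca mice aged 12 weeks gave 24 whole-cochlea libraries, 3 for each combination of noise or sham exposure, night or day, and adrenalectomy or sham operation. The 8 groups are night noise ADX, night sham exposure ADX, night noise sham-operated, night sham exposure sham-operated, and the same 4 by day, where ADX is adrenalectomy, the removal of the main source of glucocorticoid hormone. The noise lasted 1 h and covered 6 to 12 kHz at a level of 100 dB SPL. The series design puts the noise at ZT3 by day and ZT15 by night (ZT counts hours from lights-on) with collection 2 h later, but the labels of the samples read ZT11 and ZT23, so the hour of collection is not settled by these sources. The study asked how glucocorticoid rhythms bear on the response of the cochlea to noise at different times of day.

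Myelin is a stack of glial membrane wrapped around axons so that nerve impulses jump between the gaps called nodes of Ranvier. Schwann cells make it in peripheral nerves, with Pmp22, Prx and Cldn19 among their typical products, and oligodendrocytes make it in the central nervous system, with Mog, Mobp, Ermn and Opalin among theirs. Both cell types use Mbp, Mag, Cnp and Mal. In the auditory nerve the Schwann cells wrap the peripheral stretch of the axon and the cell bodies of spiral ganglion neurons, and oligodendrocytes take over in the central stretch near the brainstem. In a bulk sample of whole cochlea, fewer cells of a type and less RNA per cell cannot be told apart.

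The totals per library ran from 18894996 to 36108962 counts. Levels are given in CPM, counts scaled to a common library size with edgeR's TMM factors. No label states whether the 3 libraries of a group are 3 animals, so the p-values measure only the spread between these samples. Night noise ADX a held pituitary RNA, with 7593 CPM of growth hormone (Gh), and RNA of cerebellar granule cells stood out in 2 libraries, with 33.3 CPM of Cbln3 in night noise sham-operated b and 38.5 CPM in day sham exposure sham-operated b against a median of 2.77 CPM over all libraries. Fkbp5, which glucocorticoids induce, was lower in ADX than in sham-operated libraries (mean log2 change -0.90, SE 0.16, adjusted p = 0.00501). Its level of 56.0 to 68.2 CPM in the libraries labelled day noise ADX and of 87.7 CPM in the library labelled night noise ADX a nevertheless lay inside the range of the sham-operated libraries, 41.7 to 132 CPM. Among the 28 tested genes, 27 lay below their own mean over all libraries in day noise ADX c, with a median deviation of -0.38 on the log2 scale where the median over all tested genes was -0.01. The count was also 27 in night sham exposure sham-operated a and was 25 in night noise sham-operated a. Their median deviations were smaller, at -0.16 and -0.23.

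Per kilobase of exon, the order of the levels was led by S100b and by genes of compact myelin. S100b, a calcium-binding protein of Schwann cells and other glia that cartilage and other cells make as well, had a median of 939 CPM per kb over the 24 libraries. Pmp22, a membrane protein of compact peripheral myelin, followed at 173 CPM per kb, then Mbp, which holds the inner membrane faces together, at 128 CPM per kb. Cldn11 had 85.7 CPM per kb. It forms tight junctions in oligodendrocyte myelin and, in the cochlea, between the basal cells of the stria vascularis, so its level is not a measure of myelin alone. Cnp, an enzyme of the non-compacted loops, had 81.0 CPM per kb, Mal, a proteolipid of myelin rafts, 59.5 CPM per kb, and Prx, which ties the outer Schwann cell membrane to the surrounding matrix, 38.5 CPM per kb. The middle of the order, from Mpzl1 at 28.8 to Tspan2 at 5.90 CPM per kb, held 14 genes of all 5 roles, Pllp at 17.7 and Nfasc at 15.7 CPM per kb among them. The oligodendrocyte genes Mog and Mobp had 4.42 and 4.21 CPM per kb. At the low end stood Dhh at 3.52, Ermn at 1.87, Aspa at 1.22 and Foxd3 at 1.17 CPM per kb.

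Markers of Schwann cells were present in every library. Sox10, the transcription factor of the Schwann and oligodendrocyte lineages, is not one of the 30 genes and measured 115 to 152 CPM, and of the listed genes Prx measured 139 to 269 CPM and Pmp22 272 to 481 CPM. Pmp2, a fatty-acid-binding protein of peripheral myelin, had 72 counts over all libraries with 0 to 11 counts in any of them. Opalin, a sheath protein of oligodendrocytes, had 63 counts with 0 to 7 counts in any library. Neither was tested.

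Of the 28 tested genes, 23 passed the threshold in none of the 18 comparisons. They include Mal, which stayed between 131 and 197 CPM over all libraries, and Pllp, a proteolipid of compact myelin, between 27.4 and 45.4 CPM. Lpar1, a receptor for lysophosphatidic acid on Schwann cells, lay between 42.0 and 70.2 CPM and Tspan2, a tetraspanin of early myelin, between 23.4 and 39.1 CPM. Cntn2, which gathers potassium channels beside the node, lay between 36.8 and 69.3 CPM, and Aspa, an oligodendrocyte enzyme that frees acetate for lipid synthesis, between 5.15 and 9.59 CPM. For 13 of the 28 tested genes, Pmp22, Mal, Prx and S100b among them, the lowest library was day noise ADX c.

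**Figure D1:**
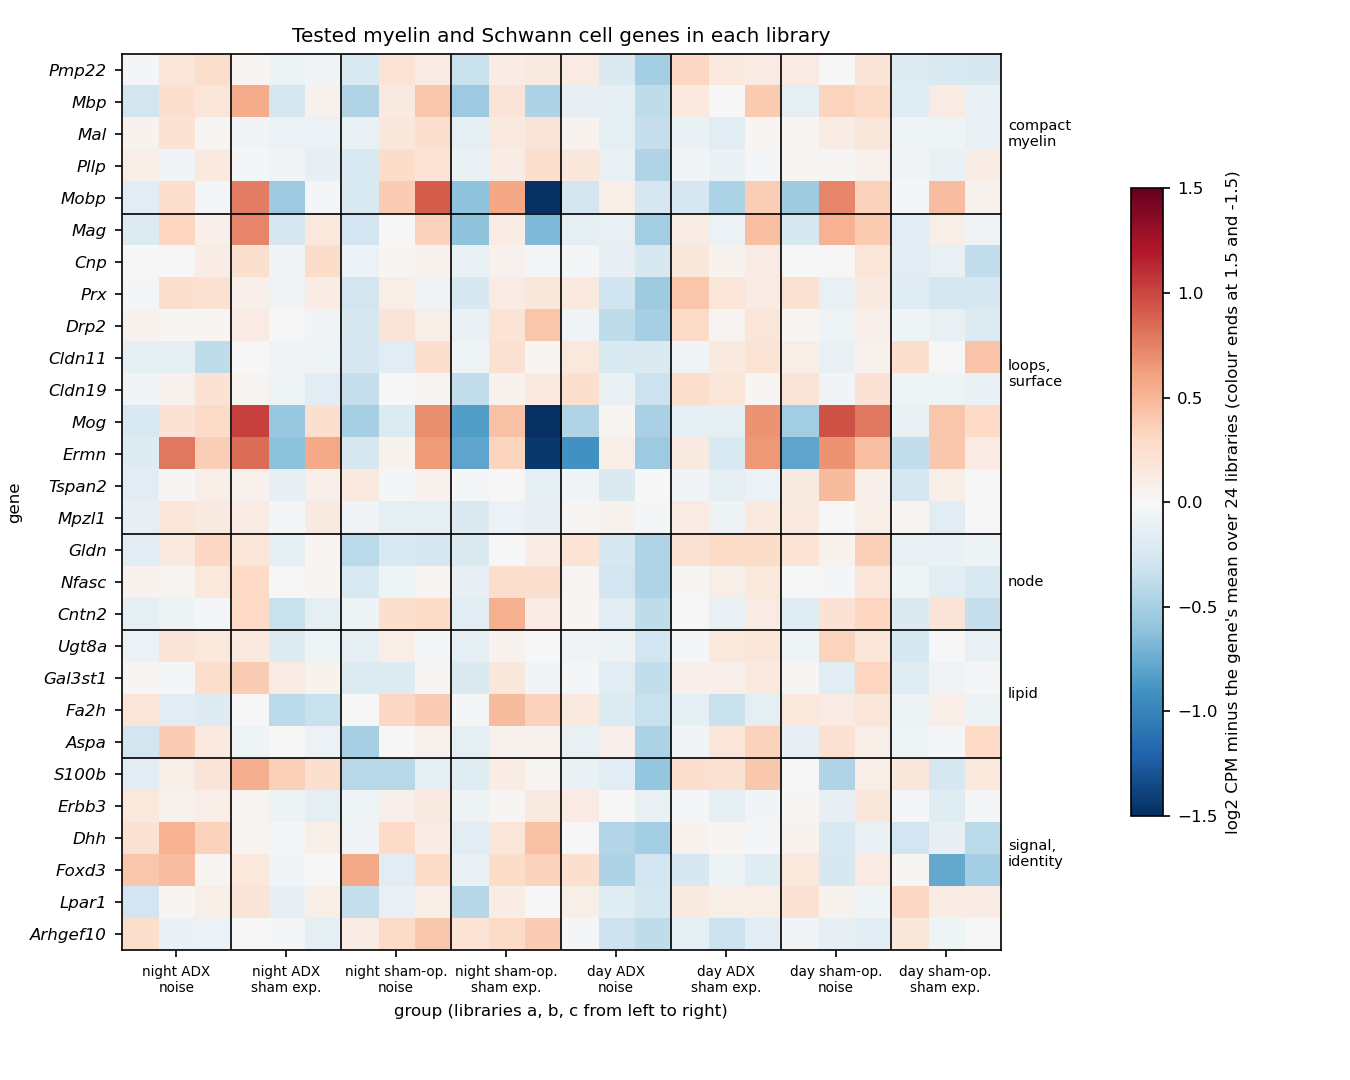
Log2 CPM of the 28 tested genes in each library minus the gene's own mean over all 24 libraries, on a colour scale that ends at 1.5 and -1.5. Columns are the libraries a, b and c of each group and rows are ordered by role. Mobp, Mog and Ermn show the strongest colours, with night sham exposure sham-operated c lowest. Day noise ADX c and night sham exposure sham-operated a are each pale to blue in 27 of 28 rows.

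The oligodendrocyte genes Mog, Mobp and Ermn varied far more between libraries of the same group than the Schwann cell genes Pmp22, Prx and Cldn19. Mog, a surface protein of the outermost oligodendrocyte lamella, ran from 53 counts (1.96 CPM) in night sham exposure sham-operated c to 516 counts (15.7 CPM) in night sham exposure ADX a, a ratio of 7.99 between the highest and the lowest library. The ratio was 5.50 for Mobp, a basic protein of central compact myelin, 5.01 for Ermn, a cytoskeletal protein of oligodendrocytes, 2.64 for Mag, an adhesion protein facing the axon, and 2.13 for Mbp. It was lowest for Erbb3 at 1.28 and Mpzl1 at 1.31. The SD between libraries of a group on the log2 scale was 0.66 for Mog, 0.62 for Ermn and 0.58 for Mobp, but 0.18 for Pmp22, 0.19 for Prx and 0.18 for Cldn19.

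Several of these swings were shared. Within the 8 groups, the library with the most Mog was also the one with the most Mobp in 7, Mag in 7, Ermn in 7 and Mbp in 6. Of 14 oligodendrocyte markers outside the 30 genes, 9 shared the highest library of Mog in 6 or more groups, Olig1, Myrf and Hapln2 in 7 each among them. The other 5 shared it in fewer, Enpp6, Gpr37, Pdgfra and Cspg4 in 4 each and Sox8 in 3. Among Schwann-type genes, Prx shared the highest library of Mog in 0 of 8 groups, Pmp22 in 2, Cldn19 in 3 and S100b in 5. Other listed genes were mixed, with Dhh and Drp2 in 1 each, Lpar1 in 4, Nfasc in 5 and Pmp2, which had few counts, in 6. Aspa and Cldn11, which oligodendrocytes also make, shared it in 4 each. At the other end, the library with the least Mog was also the one with the least Prx in 4 of 8 groups, and with the least Pmp22 in 4. The library with the most Prx was also highest in Dhh in 7, in Pmp22 and Drp2 in 5 each and in Cldn19 in 4. Ranks within groups of 3 are a description, and neighbouring genes share the same libraries. With 3 libraries a group, unrelated genes also share a highest library in some groups. How often all genes do so is not given here, so counts such as 2 or 3 are no result about a gene. Of the 2 libraries with cerebellar transcripts, night noise sham-operated b had 6.67 CPM of Mog, against 5.44 and 12.5 CPM in the other libraries of its group, and day sham exposure sham-operated b had 10.3 CPM, the highest of its group, against 7.15 and 9.48 CPM. Mog measured 6.56 CPM in night noise ADX a, the library with pituitary RNA. The part that the central end of the nerve or carried-over brain tissue plays in these swings was not tested.

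**Figure D2:**
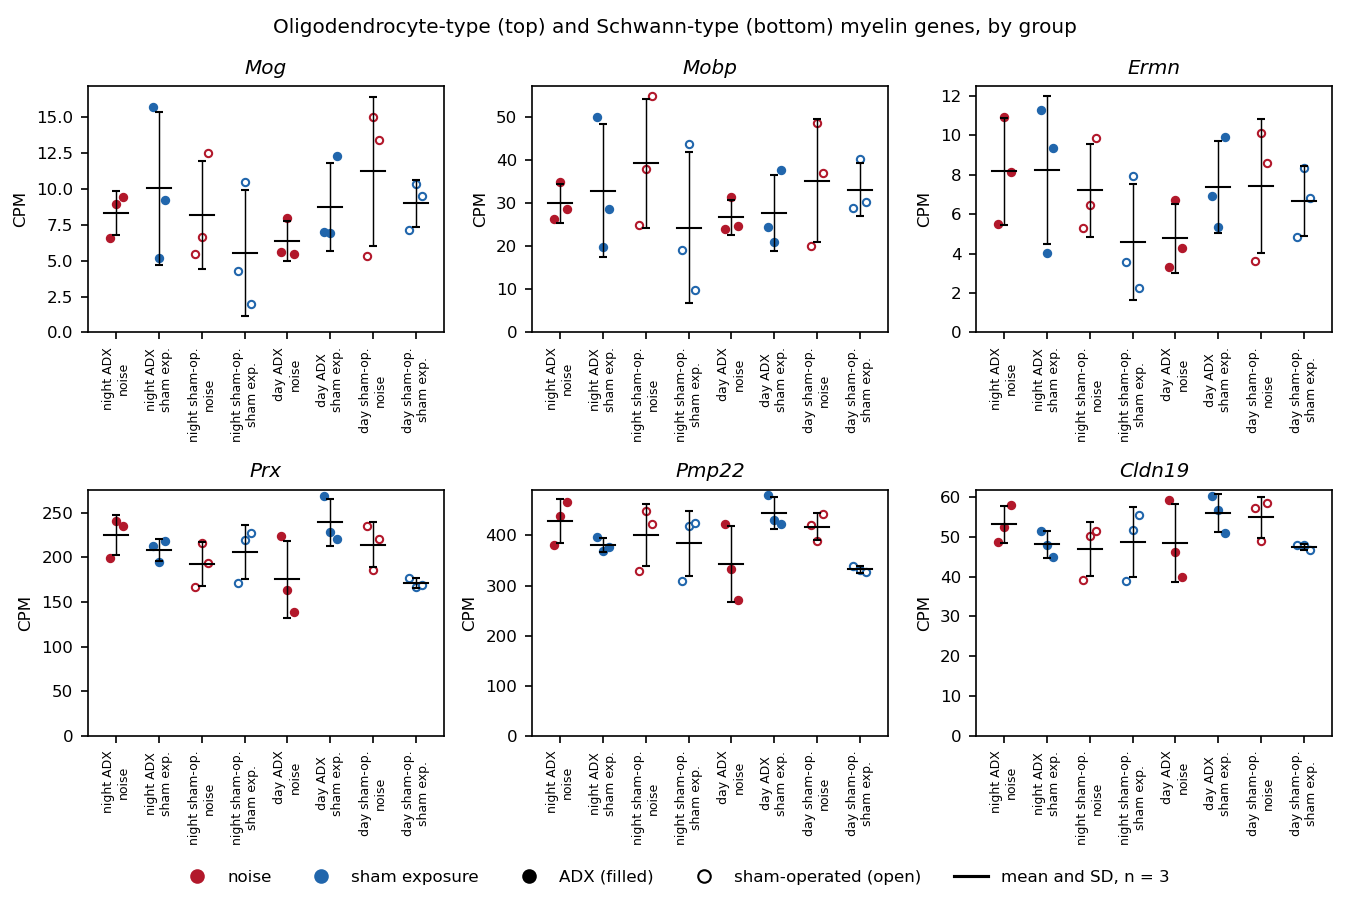
CPM of 3 oligodendrocyte-type genes (top) and 3 Schwann-type genes (bottom) in each library, by group, with the mean and SD of 3 libraries. Points for Mog, Mobp and Ermn spread widely within groups, for example Mog at 4.26, 10.4 and 1.96 CPM in night sham exposure sham-operated libraries, whereas Prx, Pmp22 and Cldn19 lie closer to their group means.

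The bases before the transcription start of 3 of these genes are shown because the ranges of the genes over libraries differ: Mobp (chr9:120149492-120149741, plus strand) and Mog (chr17:37023399-37023648, minus strand) with wide ranges and Prx (chr7:27499074-27499323, plus strand) with a narrower one. The sequences are the 250 bases up to the start in RefSeq for GRCm38.p6, 5′ to 3′ on the strand of the gene, with capitals on matches to the motifs searched. Both strands were searched for the Sox site ACAAAG and its variant with the letters ACAATG, for the CCAAT box, for the GC box with the letters GGGCGG, for the E-box with the letters CACGTG, for the D-box with the letters TTATGNAA, for the Egr site with the letters GTGGGCG and for the palindromic glucocorticoid element by its name.
Mobp: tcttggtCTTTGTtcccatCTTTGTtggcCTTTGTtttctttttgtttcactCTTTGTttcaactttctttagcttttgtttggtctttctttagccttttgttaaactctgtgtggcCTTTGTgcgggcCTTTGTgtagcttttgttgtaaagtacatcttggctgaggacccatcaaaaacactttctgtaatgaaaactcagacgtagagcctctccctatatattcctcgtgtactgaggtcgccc
Mog: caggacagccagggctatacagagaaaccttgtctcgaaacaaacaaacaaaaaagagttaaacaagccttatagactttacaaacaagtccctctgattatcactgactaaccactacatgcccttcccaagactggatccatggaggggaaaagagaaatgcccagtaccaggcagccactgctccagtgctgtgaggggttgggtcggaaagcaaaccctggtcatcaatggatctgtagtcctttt
Prx: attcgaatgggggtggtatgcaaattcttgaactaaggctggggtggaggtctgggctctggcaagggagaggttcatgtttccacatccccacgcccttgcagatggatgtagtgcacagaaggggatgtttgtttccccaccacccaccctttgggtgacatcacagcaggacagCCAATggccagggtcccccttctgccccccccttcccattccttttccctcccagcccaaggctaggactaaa
Mobp held 6 copies of the Sox site, all on the opposite strand and so written here as CTTTGT. Mog held none of the motifs and Prx held 1 CCAAT box. The Sox site stood in 16.5% of all 32851 mouse promoters of this length and in 6 of the 24 listed genes with a promoter entry, and the CCAAT box in 33.8% of all and in 11 of 24. The glucocorticoid element stood in 3 of all promoters (0.00913%) and in 0 of 24. So rare an exact match says nothing about looser forms of the element. A match describes the letters only and is no evidence of binding.

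Averaged over time and surgery, S100b was lower with noise and the other 27 tested genes had no call. S100b (chromosome 10, 76253853 to 76261159) measured from 893 to 1525 CPM with a median of 1210 CPM in the 12 noise libraries, against 1121 to 1955 CPM with a median of 1537 CPM in the 12 sham exposure libraries. The ranges overlapped, with the lowest value in day noise ADX c and the highest in night sham exposure ADX a. The mean log2 change was -0.33 (SE 0.07, adjusted p = 0.00976 by edgeR's quasi-likelihood test), and the 4 strata were all negative, at -0.56 by day in ADX, -0.34 at night in ADX, -0.30 at night in sham-operated and -0.13 by day in sham-operated mice. The call held in each of 24 fits that left out 1 library (adjusted p up to 0.0231). By role, 0 of 5 compact myelin genes, 0 of 10 genes of loops and sheath surface, 0 of 3 node genes, 0 of 4 lipid genes and 1 of 6 signalling and identity genes passed, which is 1 of 28 in all. Of all 16607 genes tested 4.81% passed in either direction and 2.4% were lower. The median log2 change of the 28 genes was 0.02, beside 0.00 over all genes.

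The bases before the start of S100b (chr10:76253586-76253835, plus strand, RefSeq, GRCm38.p6) are shown because it was the only listed gene called with noise in this average, with capitals on CCAAT.
S100b: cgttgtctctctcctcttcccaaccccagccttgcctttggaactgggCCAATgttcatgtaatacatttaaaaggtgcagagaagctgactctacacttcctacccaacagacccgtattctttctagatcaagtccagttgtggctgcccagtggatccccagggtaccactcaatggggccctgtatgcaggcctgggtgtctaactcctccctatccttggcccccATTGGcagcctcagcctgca
It held CCAAT at -202 and, on the opposite strand, at -20 from the start.

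Genes with related roles did not follow S100b past the threshold. Cldn11 had a mean log2 change with noise of -0.17 (SE 0.06, adjusted p = 0.135) and Drp2 one of -0.13 (SE 0.06, adjusted p = 0.262). Erbb3, the receptor through which Schwann cells read neuregulin on axons, had the narrowest range of the list. It measured 42.7 to 52.7 CPM with a median of 48.9 CPM in noise libraries and 41.1 to 51.0 CPM with a median of 45.6 CPM in sham exposure libraries (log2 change 0.09, SE 0.04, adjusted p = 0.214). Mbp measured 771 to 1401 CPM with a median of 1063 CPM in noise libraries and 726 to 1547 CPM with a median of 1080 CPM in sham exposure libraries (log2 change 0.01, SE 0.12, adjusted p = 0.985). Both pairs of ranges overlapped almost throughout. In the same comparison 0 of 6 astrocyte markers passed and 2 of 14 genes on the oligodendrocyte list were lower, Sox8 at 24.7 ± 3.38 CPM with noise and 34.4 ± 4.99 CPM with sham exposure, and Pdgfra at 152 ± 14.97 and 166 ± 8.12 CPM in the same order (SD, n = 12 each); both genes are also active outside oligodendrocytes. Their part in the S100b result was not tested.

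**Figure D3:**
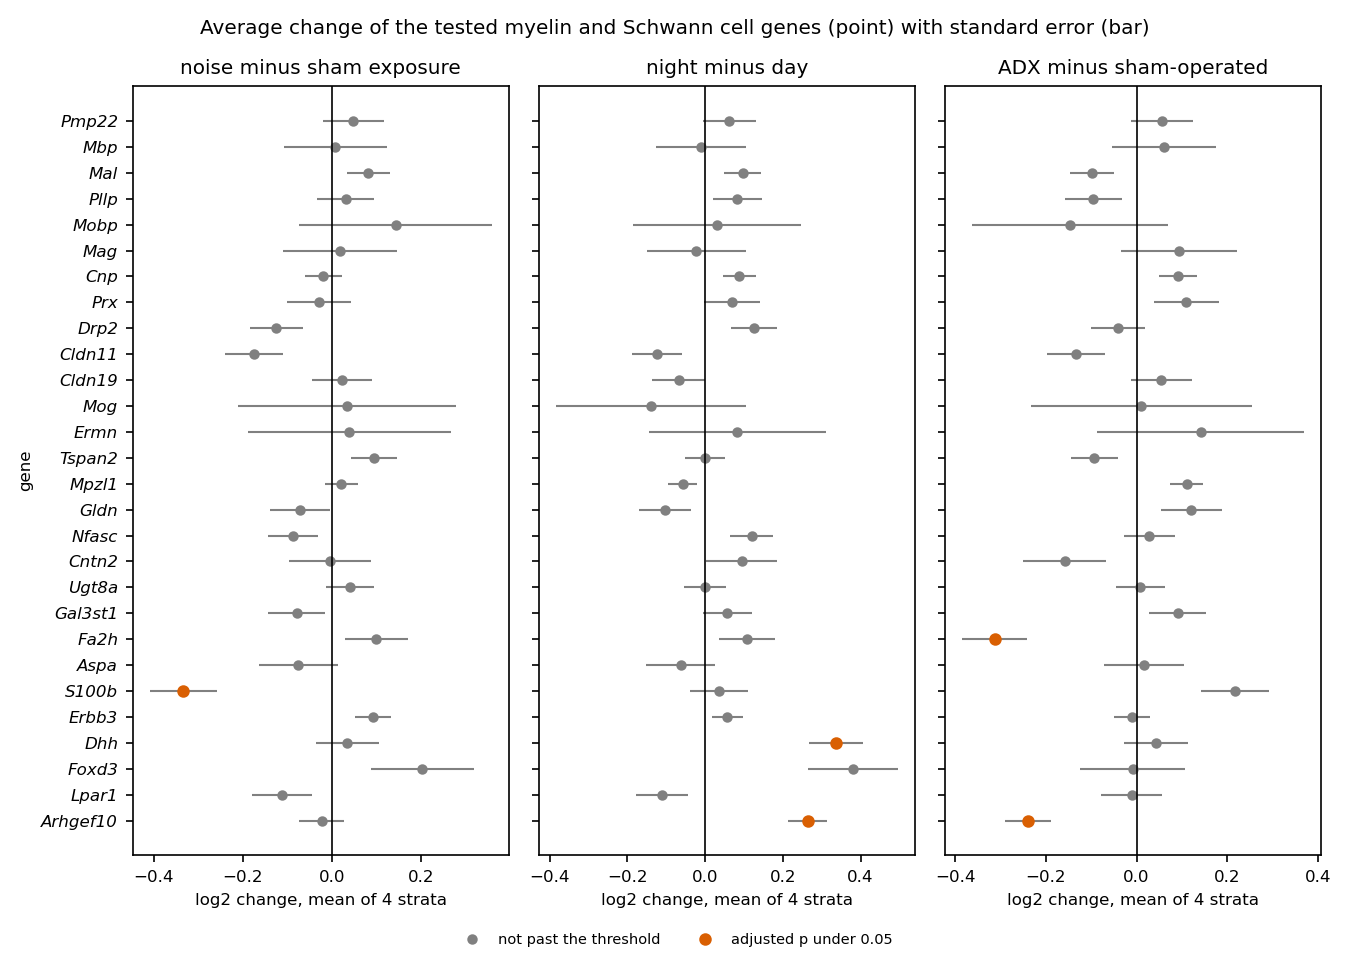
Mean log2 change of each tested gene for noise minus sham exposure, night minus day and ADX minus sham-operated, each averaged over the 4 strata of the other factors, with its standard error. Orange points passed the adjusted threshold of 0.05: S100b for noise at -0.33, Dhh at 0.34 and Arhgef10 at 0.26 for night, and Fa2h at -0.31 and Arhgef10 at -0.24 for ADX.

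Within strata, daytime noise in adrenalectomized mice gave the only calls for noise, and both were falls. Drp2 (chromosome X, 134404551 to 134456573), which binds Prx at the outer Schwann cell membrane, measured 119, 94.7 and 87.5 CPM in day noise ADX a, b and c, against 151, 127 and 140 CPM in the day sham exposure ADX libraries. S100b measured 1246, 1203 and 893 CPM in day noise ADX libraries, against 1597, 1572 and 1767 CPM in day sham exposure ADX libraries. For both genes all 3 noise libraries lay below all 3 sham exposure libraries, with day noise ADX c the lowest. The log2 change was -0.47 for Drp2 (SE 0.12, adjusted p = 0.0316) and -0.56 for S100b (SE 0.15, adjusted p = 0.0404). The 2 of 28 genes called compare with 4.02% of all genes in either direction and 2.01% that were lower. The median of the 28 was -0.24, beside -0.01 over all genes. An unadjusted p under 0.05 was found for 10 of the 28, all lower, beside 23.5% of all genes in either direction.

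Prx, the partner of Drp2, measured 224, 163 and 139 CPM in day noise ADX libraries and 269, 228 and 221 CPM in day sham exposure ADX libraries (log2 change -0.45, SE 0.14, adjusted p = 0.0776). Pmp22 measured 424, 334 and 272 CPM in day noise ADX libraries and 481, 430 and 422 CPM in day sham exposure ADX libraries (log2 change -0.37, SE 0.14, adjusted p = 0.114). In each of these genes day noise ADX a overlapped the sham exposure libraries and c lay lowest. Nfasc, the cell adhesion protein that anchors nodes and paranodes, measured 224, 179 and 160 CPM in day noise ADX libraries and 220, 231 and 243 CPM in day sham exposure ADX libraries (log2 change -0.31, SE 0.11, adjusted p = 0.114). Cldn19, which seals the Schwann cell sheath, measured 59.1, 46.3 and 39.9 CPM in day noise ADX libraries and 60.3, 56.8 and 51.0 CPM in day sham exposure ADX libraries, with the a libraries of both groups side by side.

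Without day noise ADX c the adjusted p was 0.163 for Drp2 and 0.207 for S100b, and 0 of the 28 genes passed, as was also the case without day noise ADX b, day sham exposure ADX a or day sham exposure ADX c. Without day noise ADX a, 8 passed. How many of all genes passed in these fits is not given here. The summed level of 14 oligodendrocyte markers ran from 230 to 256 CPM in day noise ADX libraries against 282 to 327 CPM in day sham exposure ADX libraries, that of 16 neuron markers from 2412 to 3328 CPM against 2870 to 3292 CPM, which overlapped. The sum over 6 astrocyte markers ran from 381 to 456 CPM in day noise ADX libraries against 469 to 555 CPM in day sham exposure ADX libraries, that over 8 cerebellar genes from 160 to 191 CPM against 202 to 224 CPM, and that over 8 skeletal muscle genes from 99.3 to 137 CPM against 154 to 221 CPM. The sums of the oligodendrocyte, astrocyte, cerebellar and muscle lists were thus lower in day noise ADX libraries without overlap, as the S100b and Drp2 levels were, and no gene of these lists or of the neuron list was at 0. Of their genes Sox8, Pdgfra and Fat2 passed as lower in the same comparison, at 0.549, 0.833 and 0.646 times the level with sham exposure. Sums weigh abundant genes most, and Pdgfra had 135 CPM with noise against 161 CPM, Fat2 45.2 CPM against 69.9 CPM. The median log2 change was -0.39 in the oligodendrocyte, -0.21 in the astrocyte, -0.03 in the cerebellar and -1.98 in the muscle list. Mog overlapped, at 5.46 to 7.93 CPM against 6.93 to 12.3 CPM. The sum of the other Schwann and myelin genes overlapped too, at 7563.5 to 9810.9 CPM against 7273.2 to 8723.0 CPM, but their median log2 change was -0.13. Of 43 tested, Utrn passed as lower (log2 change -0.39) and 2, Nab2 and Jun, as higher, beside 4.02% of all genes in either direction. An unadjusted p under 0.05 was found for 13 of the 43, beside 23.5% of all genes. The part of these lists in the falls of S100b and Drp2 was not tested.

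In sham-operated mice the same daytime noise gave 0 calls among the 28 genes by edgeR, DESeq2 and limma voom, beside 0.247% of all genes by edgeR. Prx measured 236, 186 and 221 CPM in day noise sham-operated libraries against 177, 167 and 169 CPM in day sham exposure sham-operated libraries, and Pmp22 measured 421, 389 and 442 CPM against 339, 330 and 327 CPM. Both genes were higher in all 3 noise libraries, with log2 changes of 0.32 (SE 0.14, adjusted p = 0.545) and 0.33 (SE 0.14, adjusted p = 0.495) that did not pass. Cnp, at 307 ± 23.71 and 255 ± 23.2 CPM with noise and with sham exposure (SD, n = 3 each), had the smallest adjusted p by edgeR, 0.326. The median over the 28 genes was 0.18, beside -0.01 over all genes. An unadjusted p under 0.05 was found for 6 of the 28, all with positive changes, beside 8.31% of all genes.

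The difference between the noise responses of ADX and sham-operated mice was tested as an interaction averaged over night and day. Its median over the 28 genes was -0.20, beside 0.00 over all genes, with 24 of 28 genes negative. By edgeR 0 of 28 genes and 0% of all genes passed. An unadjusted p under 0.05 was found for 4 of 28, namely Cnp, Mag, Mbp and Pmp22, beside 8.48% of all genes. DESeq2 and limma voom also called 0 of 28. Cnp had the smallest adjusted p (log2 difference of changes -0.32, SE 0.08, adjusted p = 0.241), and Mag, with a difference of -0.65, had an SE of 0.26. Night noise gave 0 calls in sham-operated mice (0.717% of all genes) and 0 in ADX mice (0.5% of all genes), with medians of -0.01 in both. There 0 and 2 of the 28 genes had an unadjusted p under 0.05, beside 8.41% and 10.2% of all genes. Neither DESeq2 nor limma voom called any of the 28. The noise by time interaction had 0 of 28 genes called by all 3 tools, beside 0.00602% of all genes called by edgeR. An unadjusted p under 0.05 was found for 0 of 28, beside 5.5% of all genes.

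**Figure D4:**
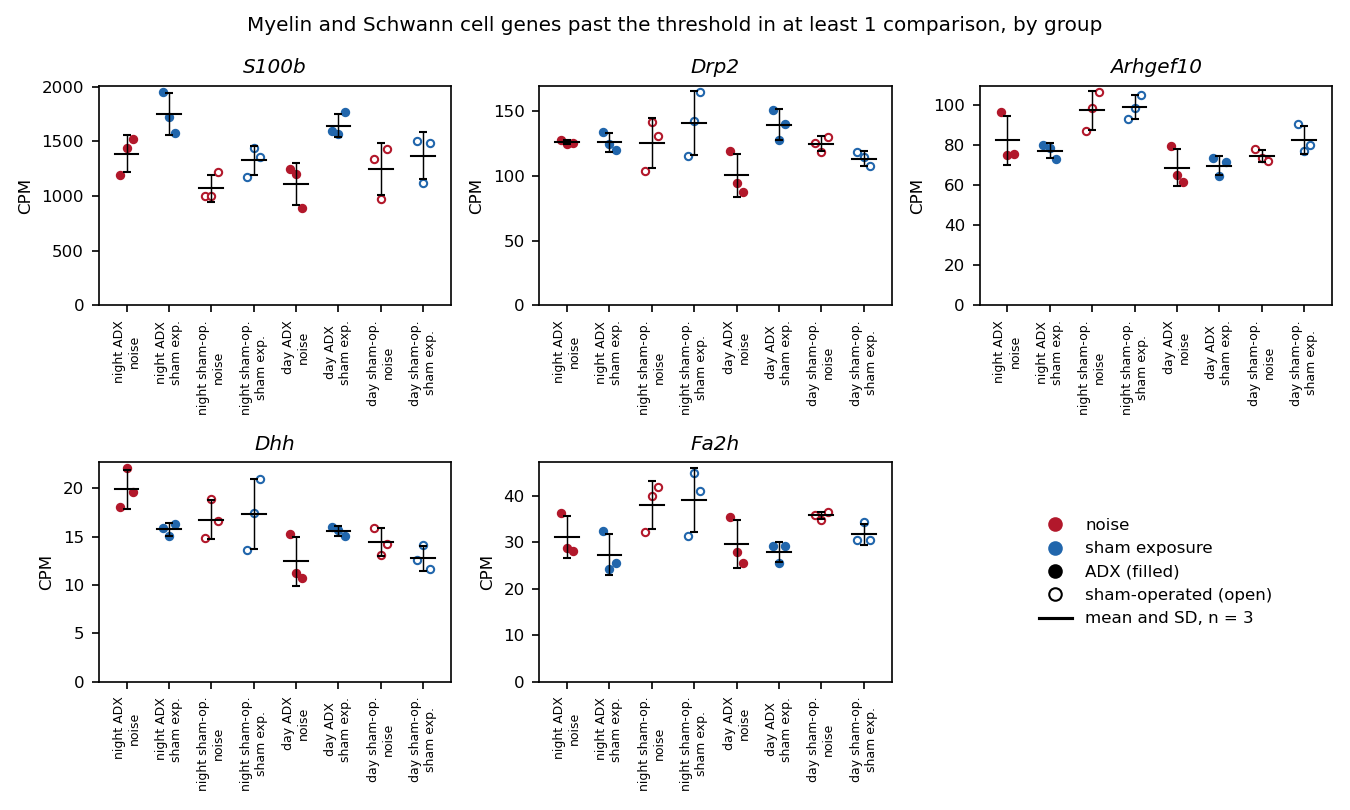
CPM of the 5 genes that passed the threshold in at least 1 comparison, in each library by group, with the mean and SD of 3 libraries and axes from 0. S100b lies lowest in day noise ADX c at 893 CPM, and Arhgef10 lies between 87.4 and 107 CPM in the 6 night sham-operated libraries.

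Between night and day, Arhgef10 and Dhh were higher at night. Arhgef10 (chromosome 8, 14911663 to 15001085) is an exchange factor for small GTPases whose human gene has been tied to slowed nerve conduction with thin myelin. It measured 73.2 to 107 CPM with a median of 90.3 CPM in the 12 night libraries, against 61.9 to 90.5 CPM with a median of 73.7 CPM in the 12 day libraries. The ranges overlapped, and the log2 change was 0.26 (SE 0.05, adjusted p = 0.00305) and positive in 4 of 4 strata, from 0.15 in sham exposure ADX to 0.38 in noise sham-operated mice. Dhh (chromosome 15, 98891152 to 98898540), the signal by which Schwann cells direct the nerve's perineurial sheath, measured 13.7 to 22.0 CPM with a median of 17.0 CPM at night, against 10.7 to 16.0 CPM with a median of 14.2 CPM by day. Its ranges overlapped as well, and it was higher by 0.34 on the log2 scale (SE 0.07, adjusted p = 0.00601). The strata were uneven, with means at night and by day of 15.7 and 15.6 CPM in sham exposure ADX mice but 19.9 and 12.4 CPM in noise ADX mice. They were 17.3 and 12.8 CPM in sham exposure sham-operated mice and 16.7 and 14.4 CPM in noise sham-operated mice. The exons of Dhh share bases with those of Rhebl1 on the same strand, so how its reads were assigned is uncertain.

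The night calls were 2 of 28 genes, both among the 6 signalling and identity genes, beside 6.01% of all genes in either direction and 3.76% that were higher. The median of the 28 was 0.06, beside 0.00 over all genes. Foxd3, a neural crest factor of the early glial lineage with 1.54 to 4.01 CPM, was at 0.38 (SE 0.12), the highest value of the 28, but its adjusted p was 0.0529. It passed with DESeq2 and with limma voom, which each called 3 of 28. The share of all genes called by these tools is not given here. The calls of Arhgef10 and Dhh held in each of 24 fits that left out 1 library, with adjusted p up to 0.0078 and 0.0142. The bases before the start of Dhh (chr15:98898541-98898790, minus strand, RefSeq, GRCm38.p6) are shown because its call rests on a gene of low level with an overlapping neighbour, with capitals on GGGCGG.
Dhh: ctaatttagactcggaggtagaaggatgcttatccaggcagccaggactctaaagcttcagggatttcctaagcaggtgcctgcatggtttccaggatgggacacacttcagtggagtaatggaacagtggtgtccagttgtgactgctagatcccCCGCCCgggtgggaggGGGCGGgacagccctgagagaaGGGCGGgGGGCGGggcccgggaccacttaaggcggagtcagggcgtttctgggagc
It held 4 copies of GGGCGG, 1 of them on the opposite strand, within 94 bases of the start. This motif stood in 32.7% of all promoters and in 9 of 24 listed genes. The E-box CACGTG, through which CLOCK and BMAL1 act, stood in 6.02% of all and, among the listed genes, in Foxd3 alone, and the D-box in 3.07% of all and in Ermn alone.

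Among pairs of groups, the night call fell in noise-exposed ADX mice. Dhh measured 18.03, 22.03 and 19.6 CPM in night noise ADX libraries, against 15.3, 11.3 and 10.7 CPM in day noise ADX libraries. All 3 night libraries lay above all 3 day libraries (log2 change 0.68, SE 0.14, adjusted p = 0.0278), and 1 of 28 genes was called, beside 0.62% of all genes in either direction and 0.373% that were higher. The call was lost in 4 of 6 fits that left out 1 library, with an adjusted p of 0.159 without day noise ADX b. The median of the 28 genes was 0.25, beside 0.00 over all genes, and this comparison uses the same day noise ADX libraries as the falls with noise. In the other 3 pairs of night against day 0 of 28 genes passed, beside 0.265% of all genes in sham exposure sham-operated, 0.0181% in sham exposure ADX and 1.12% in noise sham-operated mice. There 7, 0 and 3 of the 28 genes had an unadjusted p under 0.05, beside 11.2%, 6.25% and 15% of all genes. DESeq2 called 0, 0 and 2 of the 28 and limma voom 1, 0 and 2. Their shares of all genes are not given here.

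Gldn, which gathers sodium channels at nodes, was among the 2 called by DESeq2 and limma voom in noise-exposed sham-operated mice. It measured 37.0, 41.5 and 41.1 CPM in night noise sham-operated libraries, against 56.1, 50.5 and 62.4 CPM in day noise sham-operated libraries. The night libraries all lay below the day libraries, and edgeR gave a log2 change of -0.50 (SE 0.14, adjusted p = 0.0754). The other gene was Arhgef10 (adjusted p = 0.0634 by edgeR).

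Fa2h and Arhgef10 were lower with adrenalectomy. Fa2h (chromosome 8, 111345135 to 111393824), which hydroxylates the fatty acids of myelin galactolipids, measured 24.2 to 36.4 CPM with a median of 28.5 CPM in the 12 ADX libraries, against 30.4 to 44.9 CPM with a median of 35.4 CPM in the 12 sham-operated libraries. The log2 change was -0.31 (SE 0.07, adjusted p = 0.0202), negative in 4 of 4 strata from -0.51 at night with sham exposure to -0.18 by day with sham exposure. Arhgef10 measured 61.9 to 96.6 CPM with a median of 74.4 CPM in ADX libraries, against 72.1 to 107 CPM with a median of 88.9 CPM in sham-operated libraries, a log2 change of -0.24 (SE 0.05, adjusted p = 0.0113) with 4 of 4 strata negative. The ranges of both genes overlapped. The 2 of 28 genes called compare with 3.2% of all genes in either direction and 1.52% that were lower, and the median of the 28 was 0.01, beside 0.00 over all genes.

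The other genes of galactolipid synthesis did not pass with Fa2h. Ugt8a, which makes galactosylceramide, measured 69.4 ± 7.52 CPM in ADX and 69.1 ± 7.94 CPM in sham-operated libraries (SD, n = 12 each; log2 change 0.01, SE 0.05, adjusted p = 0.962). For Gal3st1, which turns it into sulfatide, the log2 change was 0.09 (SE 0.06, adjusted p = 0.517). S100b was 1474 ± 295 CPM in ADX and 1255 ± 198 CPM in sham-operated libraries, with a log2 change of 0.22 (SE 0.07) that did not pass (adjusted p = 0.125). The Fa2h call held in each of 24 fits that left out 1 library (adjusted p up to 0.0458). It did not pass without both day noise ADX c and night sham exposure sham-operated c (log2 change -0.28, adjusted p = 0.0702).

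Arhgef10 was called for both time and surgery, and its highest levels met in the night sham-operated groups. It measured 87.4, 98.5 and 107 CPM in night noise sham-operated libraries and 93.2, 98.5 and 105 CPM in night sham exposure sham-operated libraries. In the other 18 libraries it lay between 61.9 and 96.6 CPM. The time by surgery interaction of Arhgef10 did not pass by edgeR (log2 difference of changes -0.12, SE 0.10, adjusted p = 0.875). In that interaction 0 of 28 genes and 0% of all genes passed by edgeR, and 0 of 28 by DESeq2 or limma voom. An unadjusted p under 0.05 was found for 2 of 28, beside 6.67% of all genes.

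In single strata adrenalectomy gave 0 calls among the 28 genes, beside 0.0422% of all genes by day with sham exposure, 1.58% at night with sham exposure, and 0% both by day and at night with noise. Of the 28 genes, 8, 6, 7 and 4 had an unadjusted p under 0.05, beside 11.3%, 14.9%, 11.7% and 8.55% of all genes. DESeq2 and limma voom each called 1, 2, 0 and 0, namely Cnp by day and Fa2h and Arhgef10 at night. The percentages of all genes are edgeR's, and the share called by DESeq2 or limma voom is not given here. Cnp measured 331, 305 and 321 CPM in day sham exposure ADX libraries, against 264, 273 and 229 CPM in day sham exposure sham-operated libraries, without overlap (log2 change 0.32, SE 0.08, adjusted p = 0.128 by edgeR). By day with noise all 28 genes had a lower fitted level in ADX than in sham-operated libraries, with a median of -0.26, beside 0.00 over all genes. None of these 28 differences passed, the smallest adjusted p being 0.371 for Tspan2, and the comparison rests on the same day noise ADX libraries as above.

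Mag and Mobp spread widely in this contrast. At night with sham exposure, Mag measured 79.9, 40.3 and 53.7 CPM in ADX libraries and 31.6, 51.6 and 30.2 CPM in sham-operated libraries. Mobp measured 49.98, 19.95 and 28.7 CPM in ADX libraries and 19.2, 43.8 and 9.96 CPM in sham-operated libraries. The groups overlapped in both genes, and the log2 change of Mag was 0.62 (SE 0.26, adjusted p = 0.244).

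The other Schwann and myelin genes, 43 of which were tested, had 4 calls with noise averaged over strata, beside 4.81% of all genes. All 4 rose, and the median was -0.01. The risers were Nab2, a corepressor of Egr factors, at 65.4 ± 7.77 CPM with noise and 34.7 ± 2.83 CPM with sham exposure, Jun, a factor of injured Schwann cells and of many stressed cells, at 82.6 ± 15.9 and 53.6 ± 4.53 CPM, Egr2, the master regulator of Schwann cell myelination that is also an immediate early gene elsewhere, at 29.8 ± 4.30 and 22.9 ± 2.38 CPM, and Nab1 at 55.2 ± 1.82 and 50.5 ± 2.61 CPM (SD, n = 12 each). At night 2 of the 43 passed, beside 6.01% of all genes. Ncmap, a protein of peripheral compact myelin, was higher, at 40.2 ± 7.32 CPM against 33.0 ± 4.77 CPM by day, and Fabp7, a fatty-acid-binding protein of immature glia, was lower, at 5.10 ± 1.80 CPM against 9.004 ± 1.90 CPM by day. With adrenalectomy 0 of 43 passed by edgeR, beside 3.2% of all genes. An unadjusted p under 0.05 was found for 4 of the 43, beside 16.9% of all genes.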

How the data were processed

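Messenger RNA of 24 whole cochlea libraries was sequenced as 50-base single reads after stranded library preparation from 300 ng of RNA, per the labels' protocols. The authors deposited raw read counts under gene symbols. TopHat2 2.0.11, HTSeq 0.6p1 and mm10 are listed in the submitters' processing notes. The gene annotation and the strand setting of the counting are not given in the sources used here, so reads of overlapping genes (Cnp with Dnajc7, Ermn with Galnt5, Dhh with Rhebl1) may be shared or split.

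From these counts, 16607 genes were kept by filterByExpr over the 8 groups, scaled by TMM and fitted with 1 coefficient per group by edgeR 4.0.16 in R 4.3.3 (robust quasi-likelihood, two-sided F-tests). The 18 contrasts were 12 pairs of groups, 3 averages over 4 strata and 3 interactions. The Benjamini-Hochberg adjustment ran over all genes, with a threshold of 0.05. Log2 CPM had a prior count of 2. The fitting was tested on simulated data. Exon lengths and gene positions come from GENCODE vM21 (GRCm38) and promoters from RefSeq (GRCm38.p6).

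The alternatives were RLE factors, no filter, a replicate block, DESeq2 1.42.0, limma 3.58.1 voom with library weights, a fit of only the groups compared, leaving out the 3 libraries with pituitary or cerebellar transcripts, and leaving out each library in turn. Leaving out day noise ADX c and night sham exposure sham-operated c together was chosen after seeing the data. Values are given per library for genes past the threshold in any contrast and for Mbp, Pmp22, Prx, Mag, Cldn19, Erbb3, Nfasc, S100b, Mobp and Mog. From the other lists (other Schwann and myelin genes, cholesterol synthesis, and markers of oligodendrocytes, astrocytes, neurons, cerebellum, pituitary and skeletal muscle) up to 4 genes per contrast past the threshold are named. Cnp, Gldn, Foxd3, Cldn11, Ermn, Mal, Pllp, Lpar1, Tspan2, Cntn2, Aspa, Ugt8a, Gal3st1, Sox10 and the members singled out for a low p were named after their values were seen. The genes and lists were chosen with earlier results of these data known. Results for some genes outside the 30 are not reported here.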

Additional observations from a re-analysis of the deposited data

How the results depend on the processing

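Of 354 counts of called genes recomputed under an alternative, 317 stayed within 1.5 times the reported count, and 352 of 354 medians of the 28 genes moved by less than the spread. The called genes passed in 176 of 197 recomputed values and reversed in 0. Many of these values are averaged contrasts refitted without 1 library, where each call passed in 24 of 24 fits. The calls in pairs of groups passed in fewer such fits. For day noise in ADX mice, Drp2 passed in 2 of 6 and S100b in 1 of 6, and for night against day in noise ADX mice Dhh passed in 2 of 6. For day noise in ADX mice, 2 as reported, the count was 1 with the replicate block, 4 with DESeq2, 6 with limma voom, and 0 both without the 2 libraries lowest in peripheral or central genes and in a fit of only the groups compared. It ran from 0 to 8 when 1 library was left out. For night against day in noise ADX mice, 1 as reported, it was 0 without the 2 libraries, 0 in the fit of only the groups compared, and ran from 0 to 8 when 1 library was left out. For night against day it was 2 with DESeq2, 2 with limma voom, 1 without the 2 libraries and from 0 to 1 with 1 library left out in noise sham-operated mice, and 1 with limma voom in sham exposure sham-operated mice.

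For adrenalectomy by day with sham exposure it was 1 with DESeq2, 1 with limma voom and 3 in the fit of only the groups compared. At night with sham exposure it was 2 with DESeq2, 2 with limma voom, 1 without the 3 libraries with pituitary or cerebellar transcripts, 1 in the fit of only the groups compared and from 0 to 1 with 1 library left out. By day with noise it ran from 0 to 4 with 1 library left out. For the averages it was 2 with limma voom and from 1 to 2 with 1 library left out for noise, from 2 to 4 with 1 library left out for night, and 1 without the 2 libraries for adrenalectomy. The share of all genes that passed under each alternative is not given here, so higher counts are no result about the listed genes in particular. The cause of these shifts was not tested.

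Shared letters were checked as a possible pairing. Of 84 same-letter pairs of libraries, 20 had deviations with a correlation over 0.1 (range -0.27 to 0.41). No label pairs the libraries by letter and the main fit had no block, but this check cannot exclude a batch shared by letter. The replicate block moved no other count of calls by over 1.5 times. Of 24 libraries 14 had their highest mean correlation, over libraries of other groups, with those of their own letter, a hint from the data and not the design. How many would do so without any pairing was not computed. With 3 libraries a group, genes with few counts such as Foxd3, Aspa and Mog are the least certain.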

Other observations

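Cholesterol, which makes up much of the myelin membrane and is also made by most other cells, was covered by a list with 22 tested genes. With noise averaged over time and surgery, 9 of the 22 rose and 0 fell, beside 4.81% of all genes in either direction, and the median log2 change was 0.12, beside 0.00 over all genes. Cyp51 and Idi1, enzymes of the pathway, had mean log2 changes of 0.26 (SE 0.04, adjusted p = 8.16e-05 by edgeR) and 0.24 (SE 0.04, adjusted p = 0.0005). At night 3 of the 22 were higher than by day, Cyp51 among them (log2 change 0.16, SE 0.04, adjusted p = 0.0124), beside 6.01% of all genes in either direction and 3.76% that were higher. With adrenalectomy 1 of the 22 was lower, beside 3.2% of all genes in either direction and 1.52% that were lower.

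Markers of other cells gave few calls in the 3 averaged contrasts, in which 4.81% of all genes passed for noise, 6.01% for night and 3.2% for adrenalectomy. Fat2 of the cerebellar list was lower with noise (48.0 ± 5.68 CPM, against 63.8 ± 12.6 CPM with sham exposure) and at night, while 0 of 8 cerebellar genes passed with adrenalectomy. Of 16 neuron markers Tubb3 was higher at night, of 6 astrocyte markers Aldh1l1 was lower at night, and of 8 skeletal muscle genes Actn3 was higher at night. Of the 3 pituitary genes 0 passed in these contrasts. In pairs of groups, Pomc and Prl passed for night noise ADX against both night sham exposure ADX and day noise ADX, with night noise ADX a holding most of their RNA, and Enpp6 of the oligodendrocyte list was higher in night sham exposure ADX (12.7 ± 2.10 CPM) than in night sham exposure sham-operated libraries (6.91 ± 2.02 CPM).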
